A study of Mus musculus with 24 samples.

Results

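The levels of 9 genes that bind, take up, make, break down or sense retinoic acid were described in mouse amniotic cells, in endothelial cells (ECs) made from them and in ECs of lung and liver. The genes were Crabp1, Crabp2, Stra6, Aldh1a1, Aldh1a2, Cyp26b1, Rara, Rarb and Rarg, 9 of the 22282 genes to which the transcripts of the files were summed, and all 9 had a mean FPKM of at least 1 over the 24 libraries. They were chosen from the FPKM values of these same libraries, with earlier results known. Their levels and differences are therefore given as a description, without a test.

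The study asked how Ets factors, constitutive Akt signalling and Sox17 turn amniotic cells into ECs. RNA was sequenced from 3 libraries in each of 8 groups, all of the C57BL/6J background. As donors of amniotic cells the methods name wild-type mice or mice with a tdTomato reporter. Which of these gave which library is not stated there. The header of the deposited values reads 'mAC11.5 Flk1 3-24 GFP+ D65' for RACVEC 3. It reads 'liver EC P8' for Akt-liver EC 2 and 'liver EC GFP+' for Akt-liver EC 3, and these terms are not explained. MACs are amniotic cells of embryos of stages E11.5-E13.5, from which all groups with MAC or RACVEC in their name were made, and the methods count as a replicate a culture isolated on its own from embryos of both sexes. RACVECs are MACs that received lentiviruses for Etv2, Erg and Fli1 and were grown in EC medium with an inhibitor of TGF-β signalling. Akt-MACs received only a virus for myristoylated, constitutively active Akt, whereas Akt-RACVECs received the Ets factors and Akt, and Sox17-RACVECs the Ets factors and Sox17. Akt-LECs and Akt-liver ECs are lung and liver ECs that were taken with CD31 beads, cultured with the same Akt virus and sorted again by FACS, and together they are called cultured ECs here. LSECs are liver ECs that were sorted by FACS directly from the organ and never cultured. The age of the animals that gave the lung and liver cells is not given in the labels.

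Retinol (vitamin A) travels in blood on a carrier and enters cells through a membrane receptor, is oxidized to retinaldehyde and then irreversibly to retinoic acid by aldehyde dehydrogenases, and is removed by cytochromes of the Cyp26 family. Within the cell, retinoic acid is held by small binding proteins, and in the nucleus it binds the receptors Rara, Rarb and Rarg, which act on genes as pairs with the Rxr receptors. Retinoic acid patterns the embryo, and the liver is the main store of retinol, in its stellate cells.

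FPKM is the number of sequenced fragments per kilobase of transcript, scaled to the size of the library, so levels can be set side by side between genes of different length. Numbers of fragments are not used here, the depth of a library is therefore unknown, and a gene listed at an FPKM of 0 has no known limit of detection. The summed FPKM ranged from 1689486 to 2317294 between libraries, and 0 pairs of libraries held identical values. Differences between groups are those of the mean log2(FPKM + 1) from 1 limma fit to all libraries, with its standard error, and the addition of 1 understates the change of low genes. Genes were past the thresholds at a Benjamini-Hochberg adjusted p below 0.05 over 14964 genes and a log2 difference past 1 or -1. For the 9 genes, which were chosen from these same values, passing them is a description and not support for a difference. In bulk RNA, fewer cells of a type and less RNA per cell cannot be told apart.

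Some libraries stood apart from their group in genes other than the 9. The library labelled Sox17-RACVEC 2 listed the transduced Etv2 at 0, against 458 and 378 in the other two, and Pecam1 at 5144, against 586 and 714. Its Erg was 387, against 4.49 and 0, and Erg was also low in RACVECs (3.91, 13.8 and 0.90), although it is one of their transduced factors. Fli1 was 178 to 257 and Etv2 301 to 860 in RACVECs, with Etv2 at 0 in all MACs and Akt-MACs. Sox17 was 5.09, 40.1 and 200 in Sox17-RACVECs, against 0 in RACVECs and 12.01, 83.5 and 82.2 in Akt-RACVECs, so the label was not set apart by this gene in every library. Akt1 was 551 to 692 in MACs and 848 to 1279 in Akt-MACs. It was 607 to 694 in RACVECs, 872 to 1280.5 in Akt-RACVECs and 798 to 1266 in Akt-LECs. Sox17-RACVECs, without the Akt virus, had 884 to 1323. Akt-liver ECs, with it, had 559 to 892 and overlapped with MACs, so Akt1 did not set the Akt groups apart. The macrophage markers Adgre1, Csf1r and Clec4f summed to an FPKM of 1997 in Akt-MAC 2 and 5267 in Akt-MAC 3, against 70.1 in Akt-MAC 1 and 0.470 to 0.790 in MACs, with Clec4f at 0 in all 6 libraries. The mesothelial markers Msln, Upk3b, Wt1, Lrrn4 and Krt19 summed to 2806 in Akt-MAC 3, mostly through Upk3b (1886), and to 3186 in RACVEC 3, where only Msln (2026) and Krt19 (1159) were above 0, against at most 470 elsewhere. The EC markers Cdh5, Pecam1, Kdr, Tek and Emcn summed to 8.11 to 26.5 in MACs, 17.9 to 50.02 in Akt-MACs, 1205 to 2118 in RACVECs and at least 3009 in the other groups labelled as ECs. Akt-LEC 1 and Akt-liver EC 1 held Pdgfra (343 and 66.0) and Col1a1 (1065 and 556), which mark mesenchymal cells and were at most 1.66 and 5.66 in the other cultured ECs. The whole mesenchymal list does not set Akt-liver EC 1 apart, since Thy1 was 655 there and 2212 and 2316 in Akt-liver ECs 2 and 3. Akt-LEC 1 and Akt-liver EC 1 also held epithelial markers (summed FPKM 117 and 1270) and macrophage markers (82.62 and 84.55), and Akt-liver EC 1 held hepatocyte markers (60.5). LSECs held markers of hepatocytes (summed FPKM 1645 to 10080), Kupffer cells, red blood cells and stellate cells, all given below where they touch a result.

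**Figure D1:**
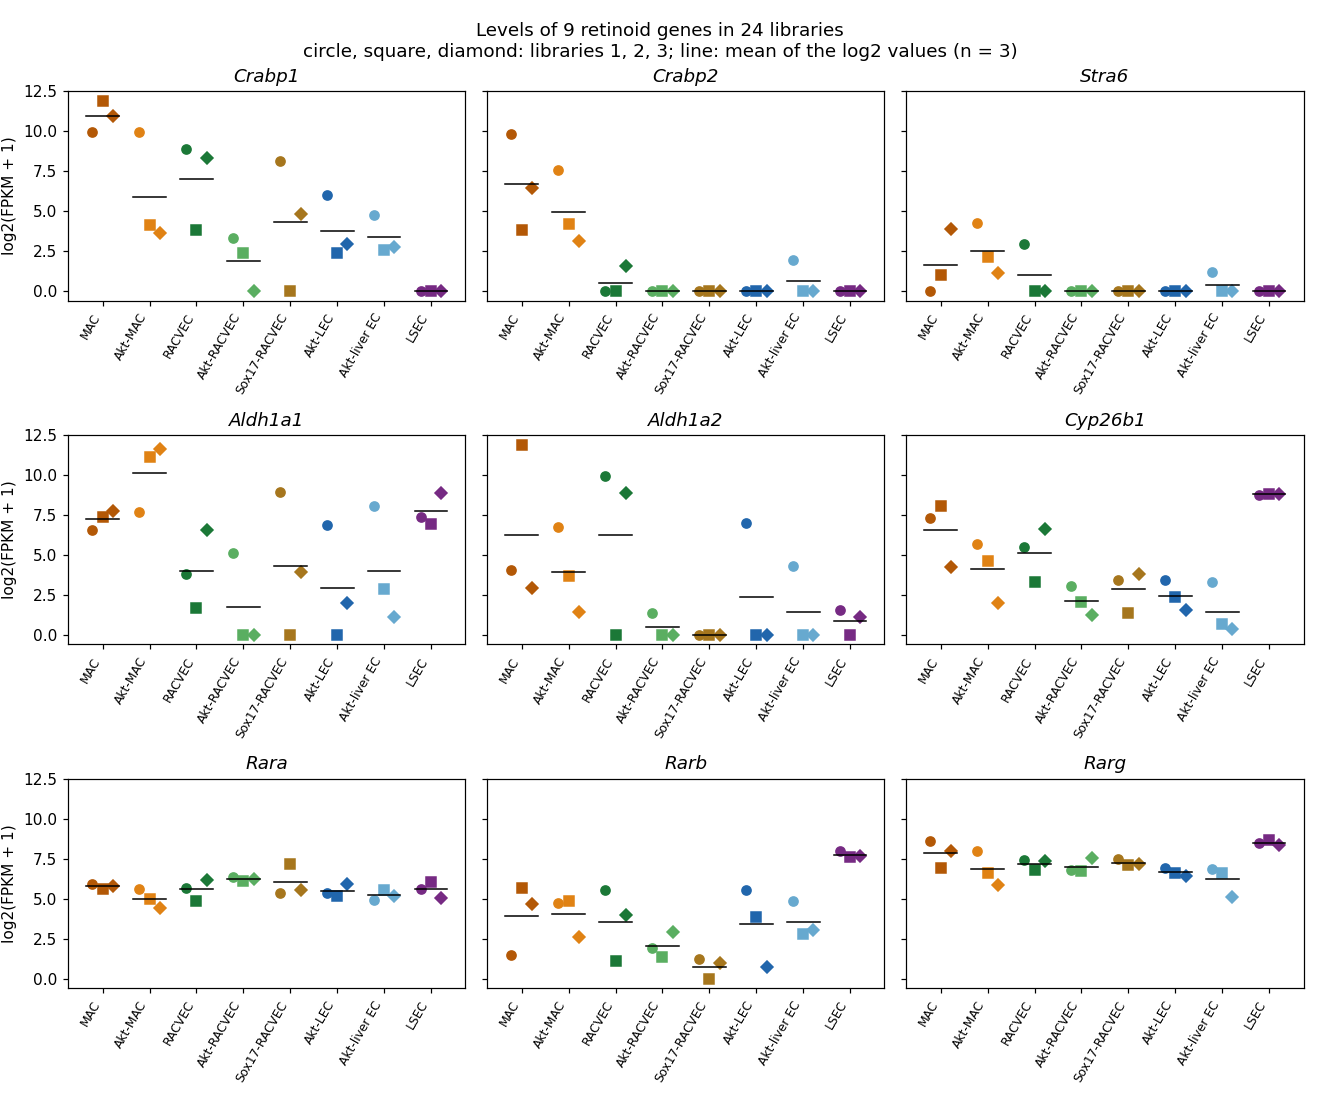
Each panel shows log2(FPKM + 1) of 1 gene on the vertical axis in the 8 groups on the horizontal axis, with circle, square and diamond for libraries 1, 2 and 3 and a line at the mean of the log2 values (n = 3). Crabp1 and Crabp2 are highest in MACs, Cyp26b1 and Rarb are highest in LSECs with 3 libraries close together, and Rara varies least between groups.

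Crabp1, on chromosome 9 of NCBIM37 (mm9) from 54612555 to 54620917, encodes a small cytosolic protein that binds retinoic acid. Its FPKM was 1014, 3908 and 1962 in MACs 1, 2 and 3 (mean 2295 ± 1475, SD, n = 3), and the value in MAC 2 was the highest of any of the 9 genes in any library. In RACVECs it was 474, 13.2 and 316, in Akt-MACs 1016, 16.5 and 11.46, and in Akt-RACVECs 9.02, 4.19 and 0. All 3 MAC libraries lay above all RACVEC and all Akt-RACVEC libraries, whereas Akt-MAC 1 reached the lowest MAC. Sox17-RACVECs were listed at 287, 0 and 27.7, Akt-LECs at 63.7, 4.31 and 6.56, Akt-liver ECs at 26.4, 5.0 and 5.80, and all 3 LSECs at 0. The group means fell in order from MACs to Akt-MACs (348), RACVECs (268), Sox17-RACVECs (105), the lung ECs (24.9), the liver ECs in culture (12.4), Akt-RACVECs (4.40) and LSECs, and every pair of neighbours in it overlapped.

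The order of the libraries of a group for Crabp1 was that of the summed FPKM of the 6 mesenchymal markers Pdgfra, Pdgfrb, Col1a1, Col1a2, Thy1 and Dcn in 4 of 7 groups, those of MACs, RACVECs, Akt-RACVECs and Akt-LECs. The sum was 2516, 8989 and 3386 in MACs, 5396, 1900 and 3062 in RACVECs, and 183, 49.8 and 0.310 in Akt-RACVECs. Akt-MACs had 2397, 2060 and 4076 and Akt-liver ECs 2017, 2323 and 2710, which did not follow Crabp1. RACVEC 2, low in Crabp1, was low in Pdgfra (4.47) and Thy1 (6.87) but had the highest Dcn of the RACVECs (1637). The part of mesenchymal cells in the level of Crabp1 was not tested.

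Crabp2, on chromosome 3 from 87752588 to 87757298, encodes the binding protein that hands retinoic acid to its nuclear receptors. MACs 1, 2 and 3 had an FPKM of 909, 13.02 and 85.4, and Akt-MACs 190, 17.3 and 7.83. The RACVECs were listed at 0, 0 and 1.95, Akt-liver ECs at 2.83, 0 and 0, and every Akt-RACVEC, every Sox17-RACVEC, every Akt-LEC and every LSEC at 0. Crabp2 was thus above 0 in every MAC and Akt-MAC and at most 2.83 in the other libraries, without overlap between these sets. MACs and Akt-MACs, the 2 highest groups, overlapped.

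Stra6, on chromosome 9 from 57911595 to 58001803, encodes the membrane receptor through which cells take up retinol from its carrier in blood. Its FPKM was low throughout, with 0, 0.990 and 14.0 in MACs, 18.2, 3.31 and 1.16 in Akt-MACs and 6.60, 0 and 0 in RACVECs. Akt-liver EC 1 was listed at 1.24 and all other libraries at 0, so the groups above 0 overlapped with each other.

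Aldh1a1, on chromosome 19 from 20676451 to 20717952, encodes an aldehyde dehydrogenase that makes retinoic acid. Its FPKM was 92.1, 169 and 216 in MACs, 206, 2277 and 3201 in Akt-MACs, and 169, 122.9 and 478 in LSECs. In RACVECs it was 13.1, 2.26 and 92.7, in Akt-RACVECs 34.3, 0 and 0, and in Sox17-RACVECs 501, 0 and 14.4. Akt-LECs had 115, 0 and 2.99 and Akt-liver ECs 269, 6.21 and 1.20. Akt-MACs 2 and 3 stood above all other libraries, of which Sox17-RACVEC 1 was the next, and in each group of cultured ECs library 1 was the high one.

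The 2 highest libraries for Aldh1a1, Akt-MACs 2 and 3, were those with the macrophage markers, and the high libraries of cultured ECs were those with Pdgfra and Col1a1. The latter, Akt-LEC 1 and Akt-liver EC 1, also held macrophage (summed FPKM 82.62 and 84.55), mesothelial (116 and 470) and epithelial markers (117 and 1270). Macrophage markers were at most 2.13 in the other cultured ECs. Within groups, the order of the libraries was that of the mesenchymal sum in 2 of 8. The part of these cells in its level was not tested. Aldh1a7, a near-identical neighbour of Aldh1a1, had an FPKM of 642 in MAC 2 and of 56.6, 292 and 291 in Akt-MACs. How fragments were split between both genes is not given in the sources used here, so the level of Aldh1a1 is uncertain by the share of its copy.

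Aldh1a2, on chromosome 9 from 71063596 to 71144050, encodes the aldehyde dehydrogenase that makes most retinoic acid of the early embryo. Its libraries spread widely within groups. MACs had an FPKM of 15.6, 3736 and 6.48, RACVECs 984, 0 and 469, and Akt-MACs 108, 11.97 and 1.69. Akt-LEC 1 was listed at 129 and Akt-liver EC 1 at 18.9, with 0 in their other libraries. Akt-RACVECs were listed at 1.62, 0 and 0, LSECs at 1.97, 0 and 1.15, and Sox17-RACVECs at 0 in all 3. The order of the means ran from MACs (1253 ± 2150, SD, n = 3) over RACVECs (485 ± 492) to Sox17-RACVECs, and all neighbours overlapped. MAC 2, the highest library, also had the highest Pdgfra (473) and Thy1 (3350) of the MACs, and the order of libraries was that of the mesenchymal sum in 1 of 7 groups. Akt-RACVECs, Akt-LECs and Akt-liver ECs had libraries tied at 0 and could not match a full order. Their library above 0 had the highest mesenchymal sum in Akt-RACVECs and Akt-LECs and the lowest in Akt-liver ECs.

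Cyp26b1, on chromosome 6 from 84521938 to 84543740 on the minus strand, encodes a cytochrome that breaks down retinoic acid. LSECs had an FPKM of 435, 455 and 442 (444 ± 10.4, SD, n = 3), above every library of every other group. MACs had 160, 267 and 17.6, RACVECs 43.7, 8.97 and 95.9, and Akt-MACs 51.4, 23.9 and 2.91. All Akt-RACVECs, all Sox17-RACVECs and all cultured ECs lay between 0.290 and 13.3. Below LSECs, the order of the means was MACs (148), RACVECs (49.5), Akt-MACs (26.1), Sox17-RACVECs (8.21), Akt-LECs (5.25), Akt-RACVECs (3.91) and Akt-liver ECs (3.25), with overlap between all neighbours. Of its relatives, Cyp26c1 was listed at 0 in all 24 libraries and Cyp26a1 reached at most 4.41.

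The 3 receptors differed in how they varied. Rara, on chromosome 11 from 98789132 to 98836256, encodes the most widely expressed of them and was at an FPKM of at least 20.6 in all 24 libraries. Akt-RACVECs had 80.9, 69.7 and 73.3, MACs 58.6, 48.6 and 55.3, RACVECs 51.0, 28.0 and 72.6, and Akt-MACs 48.8, 30.3 and 20.6. Akt-RACVECs lay above all MACs and all Akt-MACs, which did not overlap with them. Sox17-RACVECs had 41.0, 143 and 45.5, and the highest value of any library was that of the library labelled Sox17-RACVEC 2. Without it, their 2 libraries lay below all Akt-RACVECs. Lung and liver ECs, cultured or not, lay between 29.7 and 65.5 and overlapped.

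Rarg, on chromosome 15 from 102065369 to 102087948 on the minus strand, is the receptor known for its role in skin and skeleton, and it was the most abundant of the 3 in 22 of 24 libraries. The exceptions were the library labelled Sox17-RACVEC 2 and Akt-liver EC 3, where Rara was higher. Its FPKM was 359, 403 and 328 in LSECs and 387, 122 and 252 in MACs, which overlapped. In RACVECs it was 171, 108 and 166, in Akt-RACVECs 108, 107 and 183, and in Sox17-RACVECs 177, 135 and 142, so the converted groups overlapped with each other. Akt-MACs had 256, 98.8 and 57.1, Akt-LECs 123.4, 95.1 and 83.4, and Akt-liver ECs 117, 98.0 and 34.3, all below every LSEC. Of its 2 transcripts in the files, the same one held 68.9% to 92.9% of the FPKM in every library, with a median of 72.1% in MACs and 87.1% in LSECs.

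Rarb, on chromosome 14 from 17263356 to 17651381 on the minus strand, encodes the receptor that retinoic acid itself induces in many cells. LSECs had an FPKM of 254, 193 and 202 (216 ± 32.7, SD, n = 3), and all other libraries lay between 0 and 49.97. MACs had 1.75, 49.97 and 24.8, RACVECs 44.9, 1.16 and 14.8, Akt-MACs 25.1, 28.5 and 5.04, Akt-LECs 46.8, 13.8 and 0.640, and Akt-liver ECs 28.5, 5.94 and 7.20. Akt-RACVECs had 2.72, 1.53 and 6.53, and Sox17-RACVECs, the lowest group, 1.35, 0 and 0.980 without overlap with Akt-RACVECs. The groups between LSECs and Sox17-RACVECs in the order of means overlapped with their neighbours. The high libraries among cultured ECs were again libraries 1.

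The sum of the 3 receptors was 628 ± 56.9 in LSECs and 134 ± 50.9 in Akt-liver ECs (SD, n = 3). Rarb made up 34.5% ± 4.75 of it in LSECs, 9.89% ± 6.18 in Akt-liver ECs and 0.379% ± 0.331 in Sox17-RACVECs. Rara made up 7.68% ± 2.09 in LSECs and 36.4% ± 7.49 in Akt-RACVECs, its lowest and highest mean share. Rarg kept a mean share of 57.8% to 72.6% in all 8 groups. Each LSEC had a higher sum and a higher share of Rarb than any other library, whose highest were 447.5 and 22.7%.

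**Figure D2:**
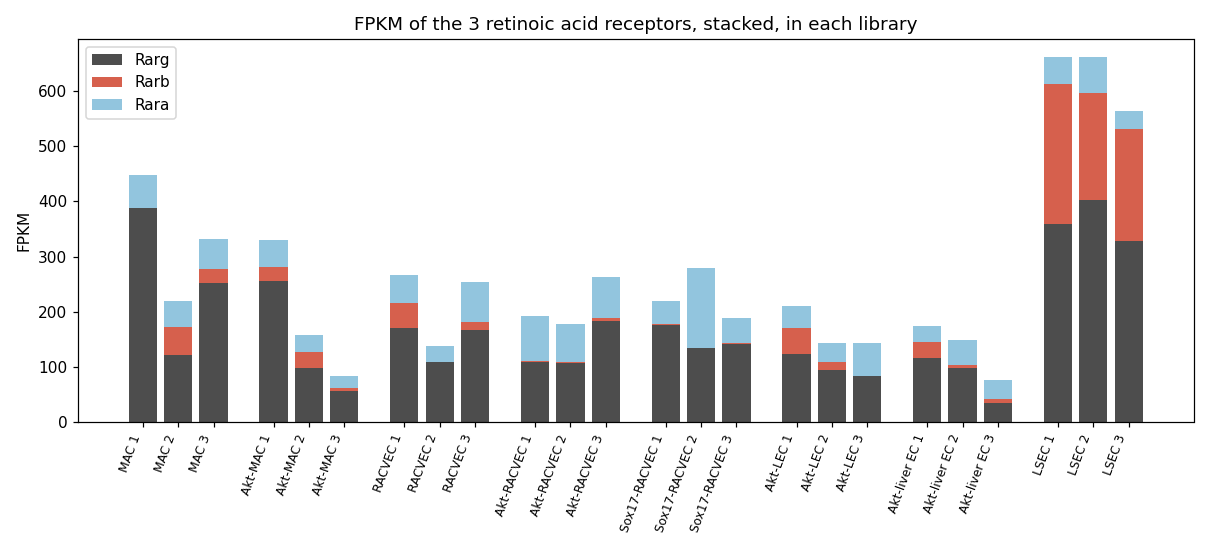
Bars show the FPKM of Rarg (dark), Rarb (red) and Rara (blue) stacked for each library on the horizontal axis, so that the height of a bar is the sum of the 3 receptors. LSECs are the tallest, and Rarb is a visible part of the bar in all 3 LSECs and in single libraries of other groups.

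Retinoic acid switches on Rarb through a direct repeat of the sequence its receptors bind. The RefSeq promoters of build GRCm38.p6, windows of 250 bases before and 50 after a gene's start, were searched on both strands for 2 half-sites in the same direction with 5 bases between them. A half-site was the sequence AGGTCA, found in 16.3% of all windows, the sequence AGTTCA, found in 14.0%, the sequence GGGTCA, found in 13.7%, or the sequence GGTTCA, found in 10.4%. Of the 9 genes, 8 had a window. The repeat was found in 32 of 32851 windows (0.0974%), in 1 of the 16 windows of the 9 genes, that of Rarb, and in 1 of the 51 windows of other retinoid genes, that of Cyp26a1. Crabp2 and 13 of the 52 other genes had no window. Both promoters are shown since among the retinoid windows searched no other held the repeat, and the 250 bases before each start are printed in the direction of the gene with the repeat in capitals. The first lies on chr14:16575477-16575726 on the minus strand, with the repeat 53 to 37 bases before the start, and the second on chr19:37697558-37697807 on the plus strand, with the repeat on the opposite strand 32 to 16 bases before the start.
Rarb: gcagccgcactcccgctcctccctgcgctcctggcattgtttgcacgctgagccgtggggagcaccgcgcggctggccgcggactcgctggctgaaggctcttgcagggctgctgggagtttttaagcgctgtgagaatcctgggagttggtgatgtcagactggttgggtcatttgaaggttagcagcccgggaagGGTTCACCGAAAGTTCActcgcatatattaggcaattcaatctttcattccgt
Cyp26a1: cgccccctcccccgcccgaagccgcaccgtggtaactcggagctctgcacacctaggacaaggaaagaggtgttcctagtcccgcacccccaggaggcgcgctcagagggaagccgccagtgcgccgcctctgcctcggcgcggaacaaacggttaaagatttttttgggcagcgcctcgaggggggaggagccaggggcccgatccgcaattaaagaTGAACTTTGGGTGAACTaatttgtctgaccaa
A match is a description of these letters and not a bound site. In the same LSECs, Rarb had 254, 193 and 202 and Cyp26a1 was listed at 0, 2.30 and 4.41.

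RACVECs were compared with MACs to describe the conversion by the Ets factors. The methods grew amniotic cells in another medium before conversion, and RACVECs in EC medium with a TGF-β inhibitor. The study also used an empty virus as a control, and the medium of the sequenced MACs is not stated. An effect of culture can therefore not be told apart from that of the factors. Crabp2 was lower by a log2 difference of -6.17 (standard error 1.11), and it was the only 1 of the 9 genes past the thresholds, beside 1.35% of all genes that were lower and 1.36% that were higher. With only both groups in the fit, 0 of the 9 were past them. Crabp1 had a log2 difference of -3.94 (standard error 1.83), with no overlap of libraries, and Aldh1a1 -3.21 (2.19). Cyp26b1 had -1.40 (1.11), Rarg -0.65 (0.49), Stra6 -0.66 (0.88), Rarb -0.40 (1.21) and Rara -0.19 (0.42), all with overlapping libraries. The difference of Aldh1a2 was 0.00 with a standard error of 2.48, a value from libraries that spread from 0 to 3736. Without RACVEC 2, the library with the lowest mesenchymal sum, Aldh1a2 was at 3.14 (2.30), Crabp1 at -2.35 (1.92) and Crabp2 at -5.91 (1.27).

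Akt-RACVECs against Akt-MACs repeats this comparison in cells with Akt, with the same limit on culture, and shares no library with it. Here 3 of the 9 genes were past the thresholds as lower and 1 as higher, beside 13.4% and 6.15% of all genes. With only both groups in the fit there were 0 in either direction, with the replicate block 2 lower and 0 higher, and with a pseudocount of 10 there was 1 lower and 0 higher. Leaving out 1 library at a time gave 2 to 3 lower, with 1 higher without Akt-MAC 1 and 0 otherwise. Aldh1a1 had a log2 difference of -8.45 (standard error 2.19), Rara of 1.23 (0.42), and Crabp2 and Stra6 were listed at 0 in every Akt-RACVEC, for which no fold is given. Crabp1 had -4.02 (1.83) and Aldh1a2 -3.50 (2.48), both without overlap of libraries, whereas Cyp26b1 with -1.99 (1.11), Rarb with -2.01 (1.21) and Rarg with 0.18 (0.49) overlapped. When the Akt-MACs were represented by library 1 alone, without the 2 that held macrophage markers, only Crabp2 and Stra6 were past the thresholds. The difference of Aldh1a1 was then -5.98 (3.20), that of Rara 0.60 (0.59) and that of Crabp1 -8.09 (2.36), in a fit that assumes that the lone library varies like the other groups. In the fit of all libraries, the difference between both comparisons was largest for Aldh1a1, at -5.24 (standard error 3.10). It was past the thresholds for 0 of the 9, beside 0.00668% and 0.0936% of all genes in the 2 directions. With Akt-MAC 1 alone for its group, Aldh1a1 was at -2.77, behind Aldh1a2 (-6.31), Crabp1 (-4.15) and Stra6 (-3.60). Without RACVEC 2, Aldh1a2 was at -6.64 and Aldh1a1 at -6.40.

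**Figure D3:**
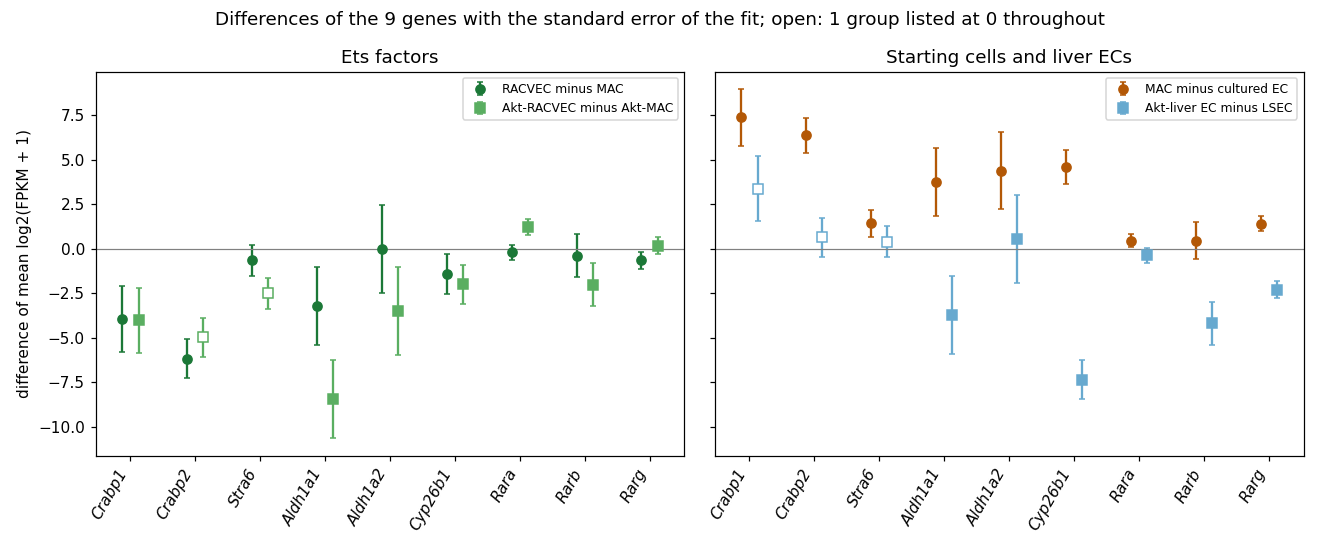
Points show the difference of the mean log2(FPKM + 1) of the 9 genes with the standard error of the fit, on the left for converted against unconverted cells without (circles) and with Akt (squares) and on the right for MACs against cultured ECs (circles) and Akt-liver ECs against LSECs (squares), with open points where 1 group was listed at 0. Crabp1, Crabp2, Stra6, Aldh1a1, Cyp26b1 and Rarb lie below 0 in both on the left, and Aldh1a2 lies at 0 without Akt and below it with Akt. In Akt-liver ECs against LSECs, Aldh1a1, Cyp26b1, Rara, Rarb and Rarg lie below 0.

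Akt and Sox17 were each compared with cells that lack them. Past the thresholds were 0 of the 9 genes in Akt-RACVECs against RACVECs, in Akt-MACs against MACs and in Sox17-RACVECs against RACVECs. The shares of all genes past them were 0.221% higher and 0.0401% lower in the first, 2.59% and 0.214% in the second and 0% and 0.00668% in the third. In Akt-RACVECs, Crabp1 had a log2 difference of -5.11 (standard error 1.83) and Cyp26b1 of -3.02 (1.11), both without overlap with RACVECs, and Aldh1a2 of -5.81 (2.48), with overlap. The sum of the mesenchymal markers moved with them, from 1900 to 5396 in RACVECs to 0.310 to 183 in Akt-RACVECs and 4.93 to 306 in Sox17-RACVECs, and its part in these differences was not tested. In Akt-MACs, Crabp1 had -5.03 (1.83) and Aldh1a1 2.93 (2.19), which became -0.96 and 0.46 when Akt-MAC 1 stood alone for its group. Over all refits, Crabp1 ranged from -7.07 to -0.96 and Aldh1a1 from 0.46 to 4.16. Without Akt-MAC 1, 1 of the 9 was past the thresholds as lower in Akt-MACs against MACs. In Sox17-RACVECs, Rarb had -2.80 (1.21) and Crabp1 -2.67 (1.83), and without the library labelled Sox17-RACVEC 2 these were -2.43 (1.38) and -0.50 (1.75), while Aldh1a1 moved from 0.28 (2.19) to 2.43 (2.24).

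MACs were set against the mean of both groups of cultured ECs to show where the starting cells differed from ECs in culture. All cultured ECs carried the Akt virus and MACs did not, and the methods grew these ECs in EC medium with the TGF-β inhibitor. Cell type, Akt and culture therefore cannot be told apart here. Past the thresholds as higher in MACs were 4 of the 9 genes, beside 7.51% of all genes higher and 7.3% lower. Crabp1 had a log2 difference of 7.38 (standard error 1.58), Crabp2 of 6.37 (0.96) and Cyp26b1 of 4.59 (0.96), all without overlap with the 6 cultured libraries, and Rarg of 1.41 (0.43), with overlap. Aldh1a1 had 3.75 (1.90) and Aldh1a2 4.38 (2.15). Without Akt-LEC 1 and Akt-liver EC 1, the libraries with Pdgfra, Col1a1 and epithelial markers, these were 5.74 (1.75) and 6.27 (2.11). Those libraries were also the highest cultured ECs for both genes. They were left out after the data were seen, so the larger differences follow from that choice. The mesenchymal sum of the Akt-liver ECs that were kept (2323 and 2710) was not below that of the one left out (2017). With only these groups in the fit, 3 of the 9 were past the thresholds. Akt-LECs and Akt-liver ECs differed from each other past the thresholds in 0 of the 9 genes, beside 0% and 0.0134% of all genes, and their log2 differences lay between -1.07 for Aldh1a1 and 1.00 for Cyp26b1.

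Akt-liver ECs and LSECs are ECs of the same organ with and without culture and Akt, and culture and Akt cannot be told apart here. Lower in Akt-liver ECs past the thresholds were 3 of the 9 genes, beside 12.9% of all genes lower and 14.1% higher. Cyp26b1 had a log2 difference of -7.35 (standard error 1.11), Rarb of -4.18 (1.21) and Rarg of -2.29 (0.49), in all of which each Akt-liver EC lay below each LSEC. Aldh1a1 had -3.73 (2.19), with overlap through Akt-liver EC 1. Without that library and Akt-LEC 1, Aldh1a1 had -5.76 (2.09), a change that follows from leaving out the high library. Rara had -0.37 (0.42), and Crabp1 was listed at 5.0 to 26.4 in Akt-liver ECs and at 0 in the LSECs.

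LSECs held RNA of other liver cells, and the members differed in whether they followed it. Alb, which marks hepatocytes, had an FPKM of 1951, 1211 and 7975 in LSECs 1, 2 and 3, a ratio of 6.59 between the highest and the lowest. Aldh1a1 had the same order with a ratio of 3.89, as did the hepatocyte products Rbp4 and Ttr with 3.74 each and Adh1 with 3.09. Cyp26b1 had a ratio of 1.05, Rarb of 1.31, Rarg of 1.23 and Rara of 2.02, with the highest library for none of them being LSEC 3. The stellate cell marker Lrat, which stores retinol as esters, had 59.0, 53.8 and 52.7, a ratio of 1.12, and the Kupffer cell marker Clec4f had 1.67. Of the other stellate cell markers, Colec11 (113, 111 and 155), Des (14.2, 15.25 and 18.7) and Reln (8.26, 8.36 and 12.6) were highest in LSEC 3. Ngfr (2.98, 1.98 and 1.97) was not. The summed FPKM of the 5 stellate cell markers was 197, 190 and 241 in LSECs 1, 2 and 3. That of the macrophage markers was 3977 to 6812 and that of the red blood cell markers 12070 to 13900. The part of these cells in the level of Cyp26b1, Rarb, Rarg or Aldh1a1 in LSECs was not tested.

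**Figure D4:**
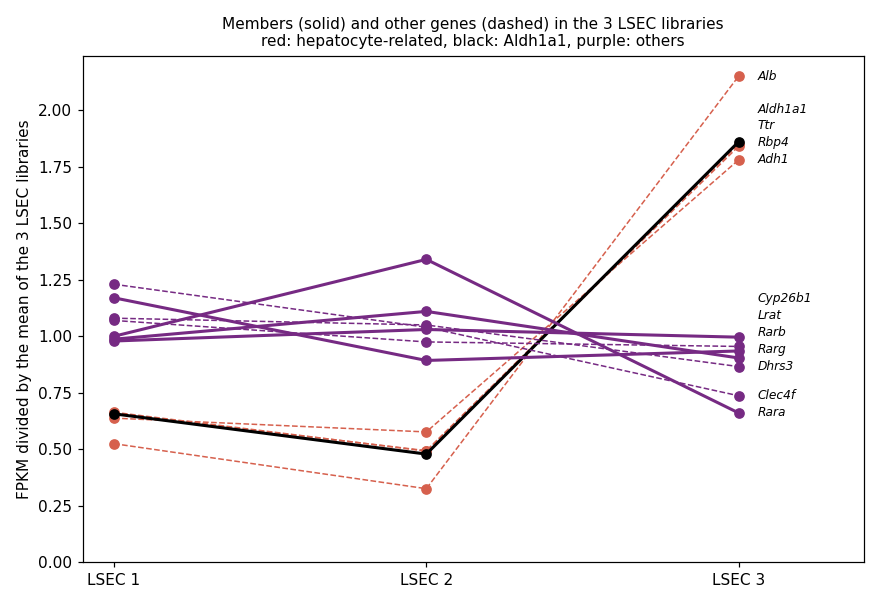
Lines show the FPKM of each gene in LSECs 1, 2 and 3 divided by its mean over the 3, for members (solid) and other genes (dashed). Aldh1a1 (black) rises with Alb, Ttr, Rbp4 and Adh1 (red) in LSEC 3 to 1.86 times its mean, whereas Cyp26b1 stays between 0.979 and 1.03.

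A list of 52 other genes of the retinoid system was tested in the same fit, of which 45 had a mean FPKM of at least 1. Rdh10, which makes retinaldehyde from retinol, and Dhrs3, which turns it back, were found in every library. Rdh10 had 196, 66.2 and 45.9 in MACs and 16.7, 25.2 and 19.8 in LSECs, and Dhrs3 130, 60.6 and 67.2 in MACs and 1464, 1419 and 1170 in LSECs. The partner receptors Rxra (77.4 to 205) and Rxrb (60.3 to 141) were also above 0 in all 24 libraries. Aldh1a3, a further aldehyde dehydrogenase that makes retinoic acid, had 167, 6.28 and 91.8 in MACs and at most 13.1 in RACVECs.

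For RACVECs against MACs, 0 of the 45 genes were called higher and 1 (2.22%) lower, beside 1.36% and 1.35% of all genes. It was Rarres1, a gene named for its response to retinoic acid, with an FPKM of 51.6, 86.3 and 20.9 in MACs and 2.27, 0 and 1.82 in RACVECs, which made a difference of -4.47 on the log2 scale (standard error 0.94, limma adjusted p = 0.013). It was not called without RACVEC 2. The median log2 fold change of the list was -0.026, and -0.095 without 8 genes listed at 0 in a whole group, beside 0.00 for all genes.

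In Akt-RACVECs against Akt-MACs, 4 of the 45 genes (8.89%) were called higher and 6 (13.3%) lower, near the shares of all genes, 6.15% and 13.4%. Dhrs3 was lower, at 252, 330 and 391 in Akt-MACs and 56.9, 33.4 and 91.2 in Akt-RACVECs, with a log2 difference of -2.49 (standard error 0.59, limma adjusted p = 0.00657), and Rarres2 (-3.53) and Rarres1 (-3.01) were also lower. Nr2f2, a nuclear receptor of veins that responds to retinoic acid, was higher, with 150, 69.7 and 16.5 in Akt-MACs, 523, 331 and 582 in Akt-RACVECs and a difference of 3.03 on the log2 scale (standard error 0.69, limma adjusted p = 0.00512), and Hoxd4 (3.30) and Rdh12 (2.51) were also higher. Rbp2, a carrier of retinol, was called higher and was listed at 0 in every Akt-MAC. The median of the list was -0.13, and -0.17 without 8 genes at 0 in a whole group, beside -0.093 for all genes. When Akt-MAC 1 stood alone for its group, 0 were higher and 3 lower, of which only Rarres1 was among the 10 before, and with each library left out in turn the count was 4 to 7. Without Akt-MAC 2 it was 4.

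MACs against cultured ECs gave 5 genes (11.1%) higher and 2 (4.44%) lower, beside 7.51% and 7.3% of all genes. Rarres2 (log2 fold change 4.66), Rarres1 (4.11), Aldh1a3 (4.08), Rdh10 (1.65) and Rdh14 (1.02) were higher in MACs, at limma adjusted p from 0.00237 to 0.0426. Rdh14 is named after its values were seen. Tgm2, a transglutaminase that retinoic acid induces in many cells, was lower, with 5.71, 25.6 and 13.6 in MACs and 292 to 2439 in cultured ECs, a log2 fold change of -5.58 (standard error 0.95, limma adjusted p = 0.000707), as was Hoxd4 (-3.01), whose libraries overlapped. The median of the list was 0.24, and 0.40 without 6 genes at 0 in a whole group, beside -0.026 for all genes. Without Akt-LEC 1 and Akt-liver EC 1, the counts were 5 higher and 3 lower.

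Akt-liver ECs against LSECs had 4 of the 45 genes (8.89%) called higher and 12 (26.7%) lower, beside 14.1% and 12.9% of all genes. Lower were 4 of 8 retinol carriers and storage genes, 3 of 13 enzymes of retinol and retinaldehyde, 1 of 3 genes of retinoic acid synthesis and breakdown, 2 of 11 partner receptors, co-regulators and a further carrier and 2 of 10 responsive genes, small counts of which several lie near the share of all genes. Among them were Ttr (log2 fold change -8.29), Adh1 (-8.01), Rarres2 (-5.43), Rbp4 (-4.97) and Dhrs3 (-3.55, standard error 0.59, limma adjusted p = 0.000166). Lrat, Adh4 and Aldh8a1 were called lower and listed at 0 in every Akt-liver EC. Ttr, Rbp4, Adh1, Adh4 and Aldh8a1 are made by hepatocytes, and each was highest in LSEC 3, as Alb was. Rarres2 was also highest there (65.2, 74.1 and 280 in LSECs 1, 2 and 3), whereas Lrat and Dhrs3 were lowest there. Among those higher in Akt-liver ECs were Cyp1b1 (4.62), Ppard (1.54) and Hoxd4, which was listed at 0 in the LSECs, all named after their values were seen. Cyp1b1 was not called without Akt-LEC 1 and Akt-liver EC 1. The median of the list was -0.43, and -0.45 without 7 genes at 0 in a whole group, beside 0.084 for all genes.

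For the remaining comparisons limma called 0 of the 45 genes in either direction. At an unadjusted limma p below 0.05 there were 11 in Akt-RACVECs against RACVECs, beside 2375 of all 14964 genes. There were 4 in Sox17-RACVECs against RACVECs (990 of all genes) and 5 in Akt-MACs against MACs (2093). Akt-LECs against Akt-liver ECs had 0 (631 of all genes). The difference between the comparisons of converted with unconverted cells, with and without Akt, had 4 (1809 of all genes).

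**Figure D5:**
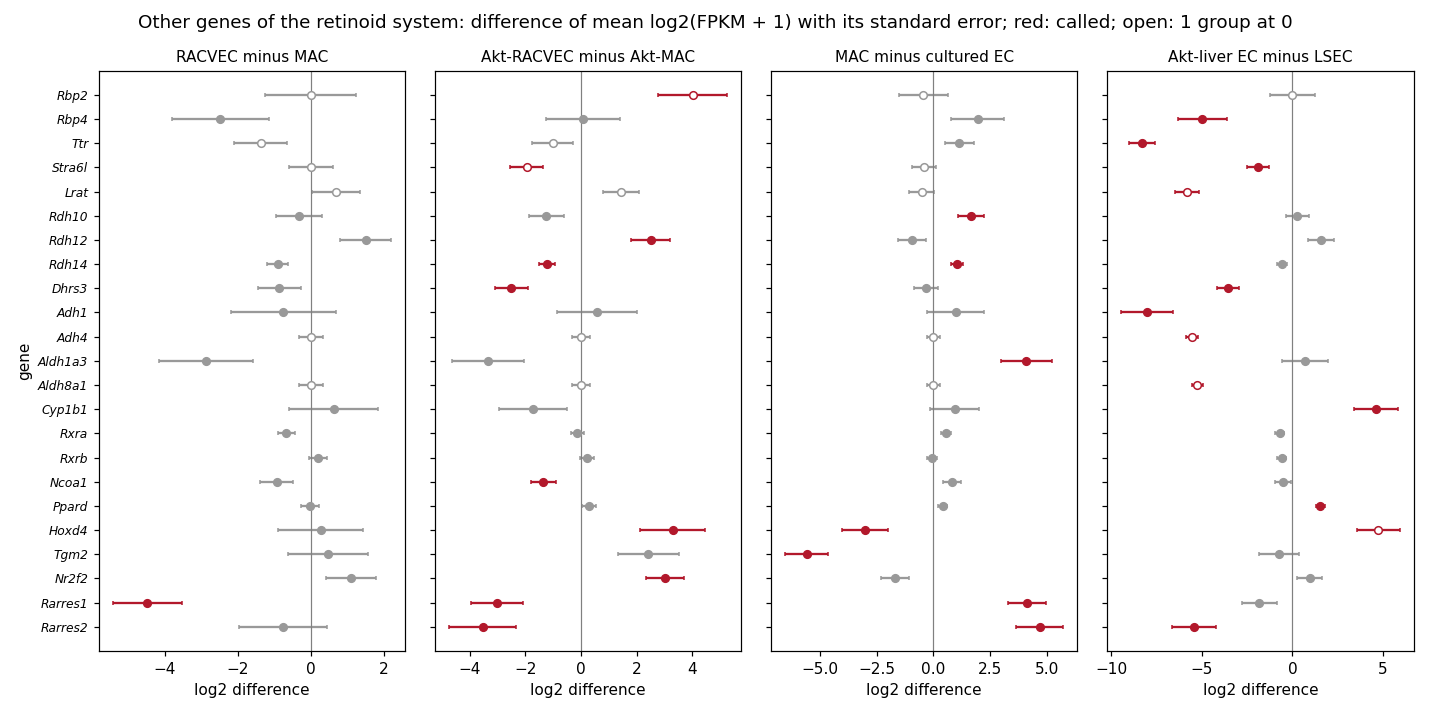
Points show the difference of the mean log2(FPKM + 1) with its standard error for 23 of the 45 other retinoid genes in 4 comparisons, in red where a gene was called and open where 1 group was listed at 0. The comparison of Akt-liver ECs with LSECs has 12 called genes among those plotted, 9 of them to the left of 0, and that of RACVECs with MACs has 1.

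The genes whose log2(FPKM + 1) ran most like that of each member were sought over the 24 libraries, which share groups and contain the same marker differences, and Pearson's r is given as a description. For Crabp1 they were Dact3 (0.918) and Dnm1 (0.915), for Crabp2 Maneal (0.942) and Enox1 (0.941), and for Stra6 Fzd8 (0.893) and Entpd2 (0.892). For Aldh1a1 they were its copy Aldh1a7 (0.904) and Gm2a (0.90), for Aldh1a2 Runx1t1 (0.947) and Svep1 (0.943), and for Cyp26b1 Pth1r (0.906) and Cdo1 (0.882). For Rarb they were a transcript without a matched symbol (0.897) and Adam23 (0.874), for Rarg Nynrin (0.818) and Baiap2 (0.817), and for Rara Sstr2 (0.774) and Brwd1 (0.758). Among the members themselves, r was highest between Cyp26b1 and Rarg (0.763), Crabp1 and Aldh1a2 (0.727) and Cyp26b1 and Rarb (0.695), and lowest between Aldh1a1 and Rara (-0.448).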

How the data were processed

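RNA sequencing of 24 libraries was used, 3 in each of 8 groups taken from the sample titles. The authors aligned reads with TopHat to mm9 (printed mmp9 in the methods). They deposited FPKM per RefSeq transcript, estimated by Cufflinks, which scaled libraries to the upper quartile and corrected for bias from sequence. Versions, annotation and read numbers are not given in the sources used here. Of 27583 transcripts, 26934 were joined to a current symbol and 649 were kept by their own name, and FPKM were summed per symbol to 22282 genes. Positions are those of GENCODE M1.

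The comparisons came from 1 fit of log2(FPKM + 1) by limma 3.58.1 (R 4.3.3) with its trend option and two-sided tests over the 14964 genes whose mean reached an FPKM of 1. The fit was tested on simulated data with known changes. The members and the lists were chosen with earlier results of these data known. Named are all members, fixed genes of the list, called list genes (at most 6 per comparison) and the 2 nearest genes of each member. Some genes of the list are counted but not reported here by name. Amniotic cultures were isolated separately, nothing says so for lung and liver, and p-values there measure only the spread between these libraries. Tables and plots used Python 3.11.15 with pandas 2.3.3, numpy 2.4.6 and matplotlib 3.10.9. Alternatives were pseudocounts of 0.1 and 10, no filter, a mean FPKM of at least 10, only the groups compared, a replicate block, scaling by median ratio, the highest transcript and leaving out each library. Added after seeing the data were fits without Akt-MACs 2 and 3, fits without Akt-LEC 1 and Akt-liver EC 1, and a block of the pairs of MACs and RACVECs that the file headers name alike.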

Additional observations from a re-analysis of the deposited data

How the results depend on the processing

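Counts of called retinoid genes other than the 9 depended on the fit where few were called. For RACVECs against MACs, 1 became 0 with a pseudocount of 0.1 and with only the groups compared, and was 0 to 1 when each library was left out. For Akt-RACVECs against Akt-MACs, 10 became 4 with only the groups compared and 3 with Akt-MAC 1 alone, and was 4 to 7 when each library was left out. For MACs against cultured ECs, 7 became 3 with only the groups compared and was 5 to 8 when each library was left out. For Akt-RACVECs against RACVECs, 0 became 1 with a pseudocount of 10 and 1 with the replicate block, and 0 to 1 with each library left out. For Sox17-RACVECs against RACVECs, 0 became 1 with only the groups compared and 0 to 2 with each library left out, both genes without RACVEC 2. Without Akt-MAC 1, Akt-MACs against MACs and the difference between the conversions with and without Akt each had 1 in place of 0, in ranges of 0 to 1. The count for Akt-liver ECs against LSECs stayed at 14 to 17 with each library left out.

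Same-numbered libraries had mean correlations of their deviations between -0.111 and 0.296 over the 7 comparisons of 2 groups, and in none did every pair exceed 0.1, so the replicate numbers were not taken as pairs. The log2 differences of the members moved by more than the spread between libraries in 52 of 1269 refits, and none that was past the thresholds changed its sign. With only the groups compared, members past the thresholds went from 1 to 0 in RACVECs against MACs. They went from 4 to 0 in Akt-RACVECs against Akt-MACs and from 4 to 3 in MACs against cultured ECs. In Akt-liver ECs against LSECs, 3 lower and 0 higher became 3 lower and 1 higher, as with a pseudocount of 0.1. Called list genes lost their call in 91 of 524 refits and none reversed, most often Hoxd4 (9 and 10 refits), Ncoa1 and Stra6l (8 each). Low genes such as Crabp2 and Stra6 depend on the pseudocount, and the depth is unknown. The causes of these changes were not tested.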
